A study of Oryza sativa Japonica Group with 8 samples.

Results

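Leaves and roots of rice, both taken before flowering, were compared locus by locus. Of the 31187 loci in the deposited table, 16467 had at least 5 FPKM in the higher of the leaf and the root library, and these loci are the members of the comparison. FPKM counts sequenced fragments per kilobase of transcript, scaled to library size, so that levels of long and short transcripts can be compared. Of the loci outside the limit, 1282 reached 4 to 5 FPKM in the higher library, and 1101 of the members had 5 to 6 FPKM.

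Poly(A) RNA of cultivated rice, Oryza sativa subspecies japonica, grown in a greenhouse, was read from both fragment ends, without strand, over 100 cycles, per the labels' protocols. The labels name no cultivar, genotype or treatment. Leaves before flowering, flag leaves per the protocols, and roots before flowering were each a mixture of stages, the first at panicle initiation and the last a day ahead of flowering, so that each library is an average over that time. The other 6 libraries came from flower buds, flowers, leaves and roots after flowering, milk grains and mature seeds. Each of the 8 groups held 1 library. No difference therefore has a replicate check, no p-value was computed, and the values compare libraries rather than organs. In an organ, fewer cells of a type and less RNA per cell cannot be told apart.

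The leaf is the main site of photosynthesis. In plants the nuclear genes for chlorophyll-binding proteins, for the small subunit of Rubisco and for other chloroplast proteins are strongly transcribed in green tissue. The root takes up water and mineral ions and meets soil microbes, and ion transporters, aquaporins, peroxidases and cell wall proteins are known for expression there. Green parts also occur in the rice flower, whose outer hulls hold chloroplasts. The table names loci by assembly identifiers alone. Of these identifiers, 0 were found in a RefSeq gene table of the assembly ASM3414082v1, so lists of leaf, root, flower and seed marker genes could not be read. The labelled organs were thus not checked against marker genes, and no locus below is given a gene name, a function or a sequence.

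The library labelled roots after flowering stood apart from its label. Across all loci on the log2(FPKM + 1) scale, its Pearson r was 0.987 with leaves after flowering, 0.933 with leaves before flowering and 0.646 with roots before flowering. Leaves and roots before flowering had r = 0.630 with each other. These coefficients run over loci of the same libraries and are descriptions. The library labelled roots after flowering enters neither side of the leaf and root comparison, and its values are named as such below. The summed FPKM was 576378 in leaves and 577164 in roots. The read depth is not given, and it could not be derived from the values. The ratios of 1108 loci above 0 and under 0.15 FPKM in both libraries showed no common step that would give whole reads. On a fixed grid of log2 bins 0.02 wide, the fullest bin held 1.35% of them.

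A locus was counted as different when its values, with 1 FPKM added to each, were at least 4-fold apart, a log2 ratio of 2 in either direction. By this rule 5112 of the 16467 loci differed between leaves and roots (31.0%). Leaves were higher at 2439 loci (14.8%) and roots at 2673 (16.2%). The same rule gave 3993 of 17210 loci (23.2%) between flower buds and leaves before flowering, and 5189 of 17531 (29.6%) between flower buds and roots before flowering, comparisons that share these libraries. Near the limit, 131 loci had a log2 ratio of 1.9 to 2 towards leaves and 147 had 2 to 2.1. Towards roots these numbers were 125 and 133.

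Which organ had more loci on its side depended on the scaling. Over all 16467 loci, leaves to roots had a median log2 ratio of 0.18 as deposited. After median-of-ratios scaling over the 8 libraries it was -0.20, a shift of -0.39, and the counts were 2083 higher in leaves and 3234 higher in roots. With equal sums of FPKM over all loci but the 100 most abundant of either library it was 0.32, with 2611 and 2513 loci. Leaves held 47.7% of the called loci as deposited and between 39.2% and 51.0% under the scalings tried.

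**Figure D1:**
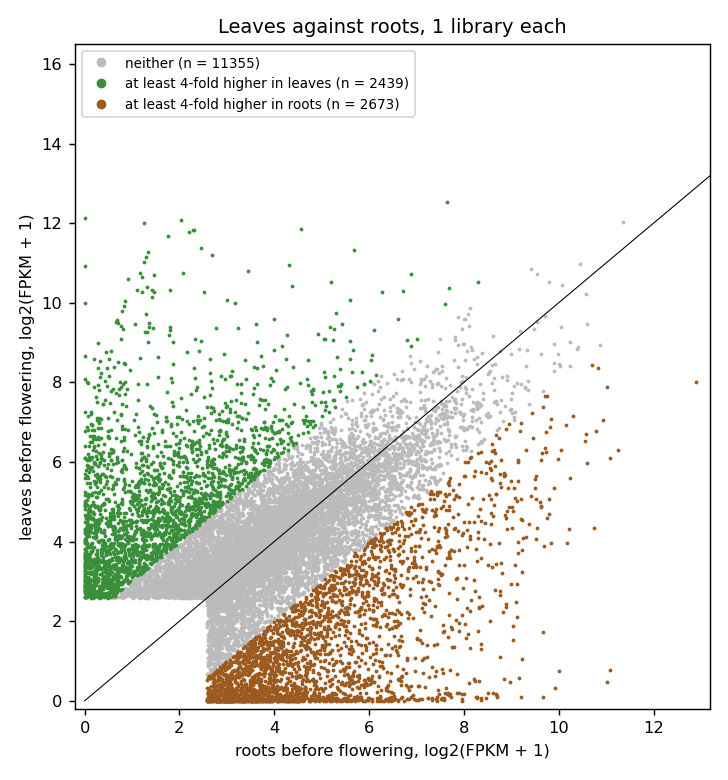
Level of each of the 16467 loci in roots (horizontal axis) and leaves (vertical axis) before flowering, both as log2(FPKM + 1), 1 point per locus and 1 library per axis; the line marks equal levels. The 2439 loci at least 4-fold higher in leaves and the 2673 higher in roots lie on either side of the line. With listed zeros included, the 48 loci at least 256-fold higher in leaves outnumber the 21 in roots. Listed zeros can add to the 48 only.

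As deposited, more loci lay towards roots from 4-fold to 16-fold, and the most extreme ratios were more often towards leaves. At least 8-fold differences were found at 1290 loci towards leaves and 1570 towards roots. At 16-fold the numbers were 683 and 757, and at 64-fold 174 and 152. At 256-fold or more, 48 loci were higher in leaves and 21 in roots. These counts include loci listed at 0 in the lower library. At 64-fold or more, 10 of the 174 leaf loci were listed at 0 in roots, and 10 of the 152 root loci at 0 in leaves. Loci listed at 0 in leaves had at most 249 FPKM in roots, which stays under 256-fold. Of those listed at 0 in roots, 7 had at least 100 FPKM in leaves, up to 4494. At 256-fold listed zeros can thus add to the leaf count only, and their number among the 48 was not counted. With 1 FPKM added, a 256-fold ratio is reached only by abundant loci. At 1000 FPKM or more leaves also had more of the called loci (43 against 22 in roots). The counts by fold were not repeated under other scalings. In all, 7908 loci (48.0%) were within 2-fold of each other in the organs.

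The called loci carried a large part of the RNA signal. The loci higher in leaves held 41.4% of the summed FPKM in leaves and 1.86% in roots. The loci higher in roots held 40.3% of the summed FPKM in roots and 2.80% in leaves. Both shares follow from the rule that chose the loci. The median level of the loci higher in leaves was 26.7 FPKM in leaves and 1.39 in roots. The median level of the loci higher in roots was 25.002 FPKM in roots and 0.966 in leaves.

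Loci with a high level in the higher of the 2 libraries differed more often than those with a low one. Of 4392 loci with 5 to 10 FPKM in the higher library, 21.7% were at least 4-fold different, against 43.8% of 1771 loci with 50 to 100 FPKM and 79.3% of 82 loci with 1000 FPKM or more. The 1 FPKM added to both values lowers the ratio of loci near 5 FPKM, so part of this slope comes from the scale. The higher value sets both the level class and the ratio, so the slope is also in part built in. How large these parts are was not tested. From 200 to 500 FPKM, 115 loci were higher in leaves and 175 in roots, and from 500 to 1000 FPKM 43 and 65. At 1000 FPKM or more the order was the other way, with 43 higher in leaves, 22 in roots and 17 neither.

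**Figure D2:**
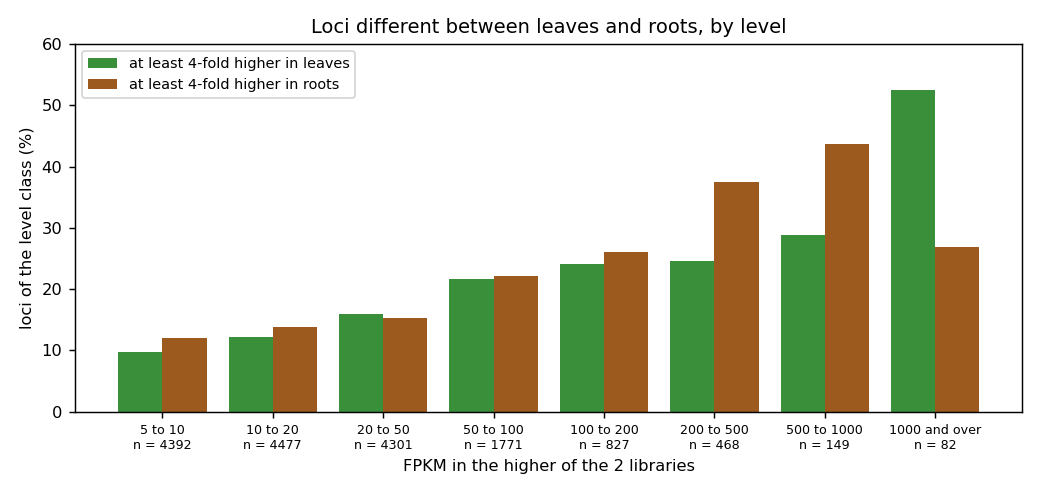
Share of loci at least 4-fold higher in leaves or in roots before flowering, as a percentage of the loci in each class of level; the class is the FPKM in the higher of the 2 libraries, and n is the number of loci in it. Roots have the larger share from 200 to 1000 FPKM, and leaves at 1000 FPKM and over, where 43 of 82 loci are higher in leaves and 22 in roots.

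Few of the most abundant loci were shared by the organs. Of the 100 most abundant loci in leaves, 77 were at least 4-fold higher there and 23 were neither. Of the 100 most abundant in roots, 66 were at least 4-fold higher there and 34 were neither. The lists shared 13 loci. The leaf list held 24.0% of the summed FPKM of leaves and the root list 18.7% of that of roots. Among the 1000 most abundant loci of each organ, 369 were shared.

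The most abundant root locus lay on chromosome 1 and had 7605 FPKM in roots and 259 in leaves. The other 6 libraries held 14.0 to 164 FPKM of it. The most abundant leaf locus, in a span on chromosome 9 shared by 2 loci, had 5896 FPKM in leaves and 198 in roots before flowering. Leaves after flowering had 3893 FPKM of it. It was listed at 0 in flower buds and had 878 FPKM in flowers. The next leaf locus, in a span on chromosome 12 shared by 40 loci, had 4494 FPKM in leaves and was listed at 0 in roots and in both libraries labelled as after flowering. Its values in flower buds, flowers, milk grains and mature seeds were between 2967 and 5548 FPKM, so its listed 0 is not read as absence and no fold is given. The rule still counts it among the loci higher in leaves, also at the largest folds. A locus on chromosome 3 was among the top 5 of both organs, with 4192 FPKM in leaves and 2615 in roots, and with 3286 to 5185 FPKM in the other 6 libraries.

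The loci named here are the extremes of 5497 loci that have their own position, reach 20 FPKM in the higher library and are listed at 0 in neither. Positions are on the coordinates of Release 7 of the MSU Rice Genome Annotation Project, per the file header. The table gives no exon, intron or UTR for them.

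XLOC_064913, on chromosome 9 from 21310128 to 21311548, had 4111 FPKM in leaves before flowering and 1.40 in roots, a log2 ratio of 10.74. Leaves after flowering had 486 FPKM of it, flower buds 163, flowers 423, and the library labelled roots after flowering 575. Milk grains had 4.76 FPKM and mature seeds 29.7. Both leaf libraries and both flower libraries were thus far above roots and milk grains, and leaves before flowering were the highest of the 8. XLOC_005392, on chromosome 1 from 26087571 to 26088335, had 4301 FPKM in leaves before flowering and 3.07 in roots, a log2 ratio of 10.04. Flower buds had 217 FPKM of it, flowers 42.2, leaves after flowering 251, and the later library labelled roots 62.7. Milk grains had 5.99 FPKM and mature seeds 1.00. Its level in leaves after flowering was near that in flower buds and far below that in leaves before flowering.

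XLOC_026511, on chromosome 2 from 22509601 to 22510611, had 2082 FPKM in roots before flowering and 0.378 in leaves, a log2 ratio of -10.56. Its next highest value was 10.4 FPKM in milk grains, and in the other 5 libraries it had between 0.0388 and 0.647 FPKM. XLOC_066173, on chromosome 9 from 14479022 to 14479844, had 2170.0 FPKM in roots and 0.711 in leaves, a log2 ratio of -10.31. Milk grains had 6.54 FPKM of it and the later library labelled roots 1.32, and the other 4 libraries had 0.0714 to 0.235. Both root loci were near 0 in the flower libraries, where both leaf loci had over 42 FPKM.

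The 25 loci most extreme in each direction by the same conditions, which include the named ones, showed the same contrast. The lists were at unlike levels. The 25 leaf loci had 508 to 4301 FPKM in leaves before flowering, with a median of 1556, and 0.211 to 4.48 in roots. In flower buds they had between 102 and 2270.1 FPKM, with a median of 367. Their median was 871 FPKM in flowers, where 24 of the 25 had at least 5 FPKM, 221 in mature seeds and 4.83 in milk grains. They lay on 10 chromosomes. The 25 root loci had 231 to 2170.0 FPKM in roots, with a median of 364, and 0.0234 to 1.05 in leaves. Their medians were 0.132 FPKM in flower buds, 0.107 in flowers, 0.738 in milk grains and 0.235 in mature seeds, and 7 of the 25 reached 5 FPKM in any of these 4 libraries. They lay on 11 chromosomes.

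The flower and grain libraries took no part in choosing the loci, and there the leaf and the root loci differed. These libraries were more like the leaf library than the root library, however. Across all loci, r with leaves and with roots before flowering was 0.745 and 0.588 for flowers, and 0.689 and 0.596 for flower buds. For milk grains it was 0.562 and 0.533, and for mature seeds 0.679 and 0.609. How far the choice of loci thereby sets the shares below was not tested. Of the 2439 loci higher in leaves, 1843 (75.6%) had at least 5 FPKM in flower buds or flowers, against 1173 of the 2673 loci higher in roots (43.9%) and 79.5% of all tested loci. In milk grains or mature seeds these shares were 54.6% and 43.2%, against 72.8% of all tested loci. At least 5 FPKM in a flower library but in neither grain library was found at 589 loci (24.1%) higher in leaves and 271 (10.1%) higher in roots, and at 10.8% of all tested loci. The reverse, grain without flower, was found at 77 (3.16%) and 254 (9.50%), against 4.17% of all. Neither organ reached 5 FPKM at 519 loci (21.3%) higher in leaves and 1246 (46.6%) higher in roots, against 16.4% of all tested loci. Loci are not replicates, and these shares describe the 8 libraries.

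The contrast between the sides widened with the ratio. Of the 1149 loci that were 4- to 8-fold higher in leaves, 69.5% reached 5 FPKM in a flower library, and of the 174 that were at least 64-fold higher 90.8% did. Of the 1103 loci 4- to 8-fold higher in roots 53.8% did so, and of the 152 at least 64-fold higher 22.4%. Loci with larger ratios also had higher levels, with a median of 258 FPKM in leaves for the 64-fold leaf loci and 173 in roots for the 64-fold root loci. At like levels the sides still differed in the flower libraries. With 20 to 50 FPKM in the higher library, 615 of 686 loci higher in leaves (89.7%) and 287 of 659 higher in roots (43.6%) reached 5 FPKM in a flower library. At this level 87.4% of all tested loci did, so that the leaf loci were near the share of all and the root loci below it. With 5 to 10 FPKM the shares were 33.2% of 425 and 24.9% of 527, both below the 63.98% of all. With 200 to 500 FPKM they were 90.4% of 115 and 68.0% of 175, against 85.7% of all. In the grain libraries the order depended on the level. With 5 to 10 FPKM, 18.4% of leaf loci and 23.3% of root loci reached 5 FPKM in a grain library, against 56.4% of all. With 10 to 20 FPKM the shares were 35.2% and 32.9%, against 73.1%, and with 20 to 50 FPKM 58.0% and 44.6%, against 80.2%.

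**Figure D3:**
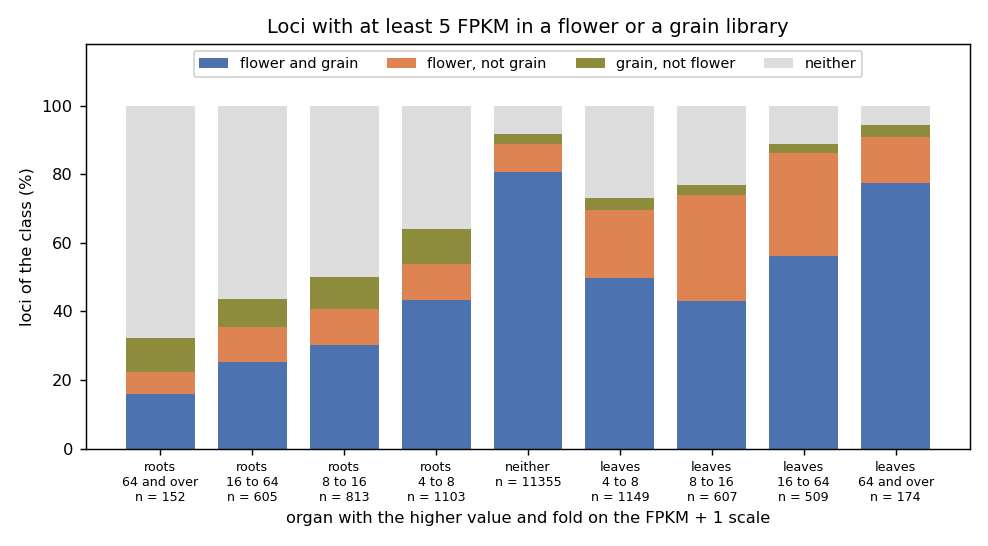
Share of loci with at least 5 FPKM in a flower library (buds or flowers), a grain library (milk grains or mature seeds), both or neither, by the organ with the higher value and the fold between leaves and roots before flowering on the FPKM + 1 scale; n is the number of loci. The share with neither reaches 67.8% of the 152 loci at least 64-fold higher in roots and is 5.75% of the 174 loci at least 64-fold higher in leaves.

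Loci found in roots and in none of the flower and grain libraries outnumbered such loci in leaves. Of 12739 loci with at least 5 FPKM in roots, 1397 (10.97%) had less than 1 FPKM in leaves before flowering. Of these, 617 (44.2%) were also under 1 FPKM in flower buds, flowers, milk grains and mature seeds, and 508 were under 1 FPKM in all 7 other libraries. Of 13451 loci with at least 5 FPKM in leaves, 1089 (8.10%) had less than 1 FPKM in roots. Of these, 101 (9.27%) were under 1 FPKM in the flower and grain libraries, and 67 of the 101 had at least 5 FPKM in leaves after flowering. The number under 1 FPKM in all 7 other libraries was 13, but these 7 include later leaves and the leaf-like later library, while roots have no such second library. Among the loci counted as under 1 FPKM, 139 were listed at 0 in leaves and 71 in roots. The share of all loci under 1 FPKM in the flower and grain libraries was not counted. As given above, those libraries were more like the leaf library than the root library. Loci chosen as under 1 FPKM in leaves may thereby be low there too, and how far the choice sets the 44.2% and 9.27% was not tested.

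Loci listed at 0 in roots mostly shared their position, and those listed at 0 in leaves mostly did not. The 139 loci listed at 0 in leaves had a median of 10.46 FPKM and at most 249 in roots, and 35 of them (25.2%) shared their position with another locus. The 71 loci listed at 0 in roots had a median of 11.7 FPKM and up to 4494 in leaves, and 58 of them (81.7%) shared their position. A position of their own was held by 68.9% of all tested loci, 76.8% of those higher in roots and 60.9% of those higher in leaves. The zeros in leaves were thus near the other root loci in this respect, and only the zeros in roots stood apart. All 210 were counted as different by the 4-fold rule. Without them 2368 loci were higher in leaves and 2534 in roots.

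In the libraries that took no part in choosing them, the root loci had low medians. The median was 1.17 FPKM in leaves after flowering, 3.05 in flower buds, 2.53 in flowers, 0.706 in milk grains and 2.25 in mature seeds. In the library labelled roots after flowering it was 1.17 FPKM. Roots before flowering gave the highest of the 8 values at 2125 of the 2673 loci (79.5%, against 21.1% of all tested loci), a share that the choice of loci largely sets. Flower buds were the highest at 229 (8.57%, against 11.004%) and mature seeds at 109 (4.08%, against 10.1%). The loci higher in leaves had a median of 15.9 FPKM in leaves after flowering, 8.75 in flower buds, 11.7 in flowers, 1.67 in milk grains and 5.08 in mature seeds, and 18.6 in the library labelled roots after flowering. Over all tested loci the medians were 12.2, 11.4, 11.8, 5.87, 9.36 and 11.9 FPKM in the same order. The root loci were thus below the general level in each of these libraries. The leaf loci were near it in flowers and below it in flower buds and both grain libraries. Leaves before flowering were the highest of the 8 libraries at 1526 of the 2439 loci (62.6%, against 18.1% of all tested loci). This share was likewise largely set by the choice. Leaves after flowering were the highest at 198 (8.12%, against 11.6%) and the library labelled roots after flowering at 394 (16.2%, against 8.91%). With that library left out, leaves before flowering were the highest at 1678 (68.8%, against 20.03%). Leaves after flowering were then the highest at 423 (17.3%), the same share as among all tested loci (17.3%).

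**Figure D4:**
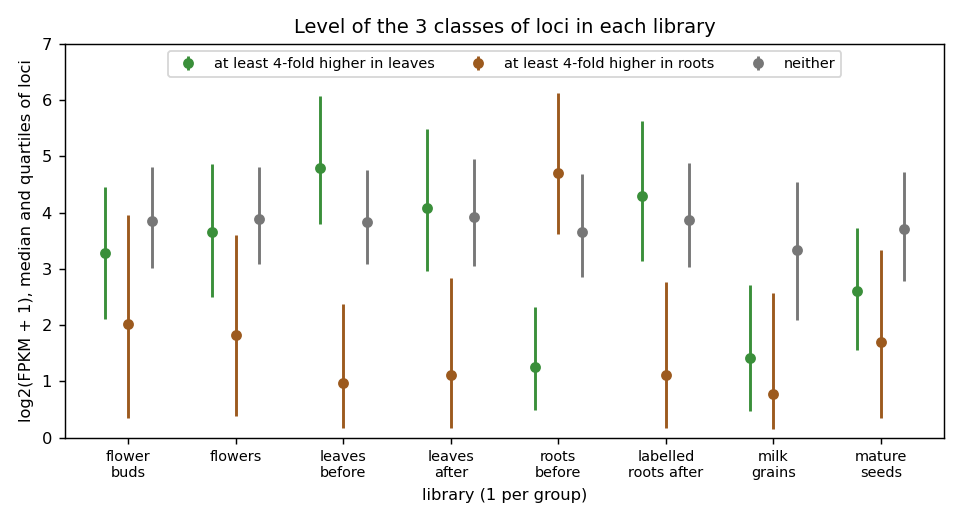
Median (point) and quartiles (bar ends) of log2(FPKM + 1) over the loci at least 4-fold higher in leaves, at least 4-fold higher in roots, and neither, in each of the 8 libraries (1 per group). Loci higher in leaves had medians of 8.75 and 11.7 FPKM in flower buds and flowers. These were above the 3.05 and 2.53 of the loci higher in roots and below the 13.4 and 13.7 of the loci that were neither. The library labelled roots after flowering follows the leaf libraries.

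Loci higher in leaves before flowering had a lower median level in leaves after flowering. Of the 2439 loci higher in leaves before flowering, 2001 (82.0%) had at least 5 FPKM in leaves after flowering, near the 76.0% of all tested loci. Of the same loci 1253 (51.4%) were within 2-fold of their earlier value, against 80.0% of all tested loci. Another 222 (9.10%) were at least 4-fold lower and 55 (2.26%) at least 4-fold higher in leaves after flowering, against 2.27% and 2.40% of all 16467 loci. Over 14789 loci that reached 5 FPKM in either leaf library, these shares were 2.50% and 3.88%. Of the 2673 loci higher in roots, 187 (6.996%) were at least 4-fold higher in leaves after than before flowering and 42 (1.57%) lower. The loci were chosen as high or low in leaves before flowering, so a value nearer the middle in another leaf library is in part built in.

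Between the libraries labelled leaves and roots after flowering, 44 of 13837 loci (0.318%) differed by at least 4-fold. Of the 5112 loci that differed before flowering, 15 differed in the same direction after flowering and 5089 were under the limits. With the library labelled roots after flowering close to the leaf libraries, this pair gives no second reading of leaf against root.

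Over all levels, loci higher in roots had a shorter median span than loci higher in leaves, and both a shorter one than the rest. Among loci with a position of their own, the median genomic span was 2335 bases for 2052 loci higher in roots, 3246 for 1486 higher in leaves and 4185 for 7804 that were neither. The quartiles were 1422 and 4012 bases for the root loci and 1987 and 5119 for the leaf loci. The span includes introns. Spans under 1000 bases were found at 11.7% of the root loci, 7.27% of the leaf loci and 3.17% of the others. The median fell with the ratio towards roots, from 2990.0 bases at 4- to 8-fold to 1552 at 64-fold or more, and towards leaves from 3538 to 2212. Loci with larger ratios also had higher levels, and this fall was not separated from level. Over all tested loci the median span was 3908 bases at 5 to 10 FPKM and 2225 at 500 to 1000 FPKM. At 20 to 50 FPKM in the higher library, the medians were 2582 bases for the root loci, 3649 for the leaf loci and 4300.0 for the others. The order was not the same at every level: at 200 to 500 FPKM the medians were 2023 bases for the root loci, 3694 for the leaf loci and 3136 for the others. FPKM divides by transcript length, and its part in this difference was not tested.

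Spans shared by several loci leaned towards leaves. Among 11342 tested loci with a position of their own, 13.1% were higher in leaves and 18.1% in roots. Among 3269 loci whose position was shared by 2 loci the shares were 17.4% and 12.5%, and among 906 at positions shared by 5 or more they were 20.9% and 12.4%. Of all the loci higher in leaves 60.9% had a position of their own, and of those higher in roots 76.8%. Reads without strand cannot be assigned between loci that overlap on opposite strands. Loci with their own position alone gave 1486 higher in leaves and 2052 higher in roots, so that leaves held 42.0% of the called loci.

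All 12 chromosomes held loci of both kinds. The share of tested loci higher in leaves ran from 12.9% of 1308 on chromosome 5 to 18.3% of 889 on chromosome 12. The share higher in roots ran from 13.9% on chromosome 12 to 18.7% of 2392 on chromosome 1. Chromosome 12 thus leaned most towards leaves, with 163 loci against 124 higher in roots. With loci of their own position alone, chromosome 12 had 86 higher in leaves and 90 higher in roots, and the largest root share was 20.7% of 584 loci on chromosome 10.

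Loci higher in roots lay next to each other more often than loci higher in leaves. Neighbours were taken as consecutive tested loci with a position of their own, 11330 on the 12 chromosomes, of which 18.1% were higher in roots and 13.1% in leaves. The next locus after a root locus was also higher in roots in 537 of 2050 cases (26.2%). After a leaf locus it was higher in leaves in 233 of 1478 cases (15.8%). After a locus that was neither, it was higher in roots in 16.2% and in leaves in 12.9% of cases.

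The share varied with the gap between neighbours. With overlap or gaps under 1000 bases, 22.7% of 128 root loci were followed by a root locus, where 11.8% of all next loci at this gap were higher in roots. With gaps of 1000 to 10000 bases, the share was 30.5% of 727, against 18.0%. With gaps of 10000 to 50000 bases the share was 24.7% of 886, against 19.8%, and at 50000 bases or more 21.7% of 309, against 18.9%. For leaf loci the share was 23.4% of 171 at gaps under 1000 bases or with overlap, against 14.0% of all next loci. It was 14.1% of 488 at 1000 to 10000 bases, against 11.9%, 13.5% of 556 at 10000 to 50000 bases, against 12.5%, and 18.6% of 263 at larger gaps, against 16.3%. Transcripts broken into several loci by the assembly, and copies that share reads, would also give neighbours of the same kind, and their part was not tested.

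Runs of at least 5 consecutive loci of the same kind were found for roots in 18 places, holding 111 loci, and for leaves in 0. The longest leaf runs held 4 loci, in 8 places. Root loci were also the more frequent among the neighbours (18.1% against 13.1%), which by itself makes long root runs more likely. The run counts were not adjusted for this. The longest root run held 12 loci on chromosome 7 from 1319030 to 1524629, where all 12 tested loci were at least 4-fold higher in roots. The next runs held 10 loci on chromosome 8 (5139636 to 5265389), 9 on chromosome 10 (16515840 to 16635314) and 8 on chromosome 1 (31710635 to 31851796). The regions on chromosomes 8 and 1 also held tested loci with a shared position, of which 2 and 1 were higher in leaves.

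The 12 loci of the chromosome 7 run had between 6.29 and 303 FPKM in roots before flowering, with a median of 14.4. In order along the chromosome, those in place 1, 3 and 6 were the highest of the first 11, with 303, 152 and 185 FPKM, and the others of these 11 had between 6.29 and 17.5 FPKM. In leaves before flowering the first 11 had between a listed 0 and 0.192 FPKM. The last stood apart, with 110 FPKM in roots, 7.52 in leaves, 25.2 in flowers and 21.2 in mature seeds, and a span of 12606 bases where the other 11 spanned 472 to 1261. Some of the 11 had nearly the same profile. Those in place 5 and 8 had 14.3 and 14.5 FPKM in roots, 0.00738 and 0.00722 in leaves and 0.0106 and 0.0103 in flowers. Those in place 4, 7 and 10 had 6.80, 9.53 and 7.75 FPKM in roots and 0.870, 0.994 and 1.14 in flowers, the highest flower values of the first 11. Near-identical copies could split their reads, so the single values of these loci are uncertain.

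**Figure D5:**
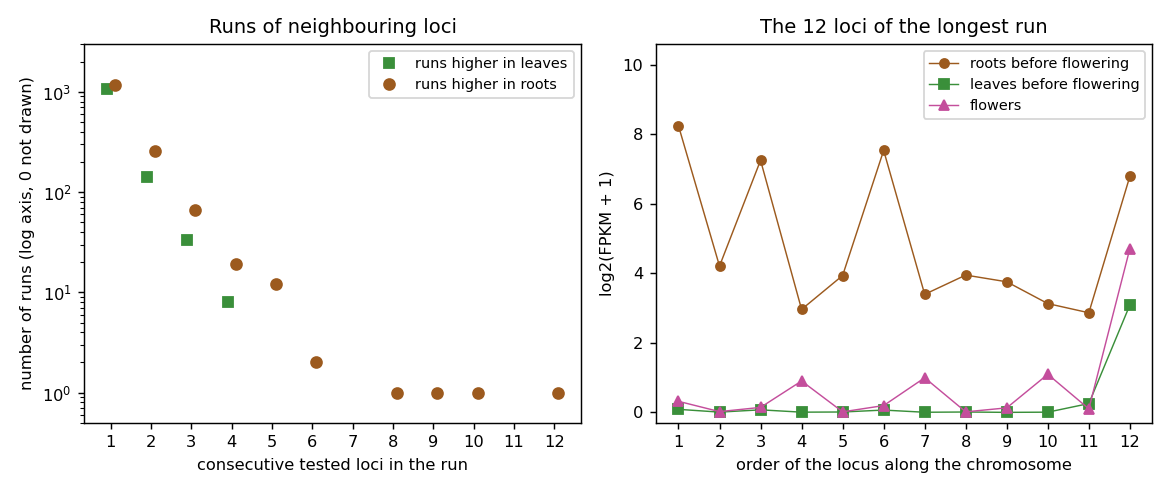
Left, number of runs of consecutive tested loci at least 4-fold higher in leaves or in roots, by the number of loci in the run (log axis); right, log2(FPKM + 1) in roots before flowering, leaves before flowering and flowers of the 12 loci of the longest run, in their order along the chromosome. Leaf runs end at 4 loci and root runs reach 12, and the first 11 loci of the longest run are near 0 in leaves.

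The other long runs differed in how much of the signal was seen elsewhere. The 9 loci on chromosome 10 had 6.78 to 182 FPKM in roots, at most 0.0410 in leaves before flowering and at most 2.15 in milk grains, and were listed at 0 in flowers. Their spans were 577 to 900 bases. The 10 loci on chromosome 8 had 14.5 to 199.5 FPKM in roots and at most 12.6 in leaves before flowering. Their highest values elsewhere were 343 FPKM in mature seeds, above any of their root values, 120.4 in milk grains and 104 in flower buds. Of these 10, 6 had at least 5 FPKM in leaves after flowering, with a median of 8.94 FPKM there against 0.307 before flowering. The 8 loci on chromosome 1 had 7.69 to 121 FPKM in roots, and 6 of them had at least 5 FPKM in flowers.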

How the data were processed

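The authors deposited 1 table of FPKM values for 31187 loci and 8 libraries. Per the submitters' processing notes, the tools were Cuffdiff, Cufflinks and TopHat, whose versions, settings and scaling between libraries are not given in the labels. Positions follow MSU Release 7, per the file headers. Every locus had more than 1 FPKM in at least 1 library (lowest row maximum 1.00001), and loci below that were not used. Up to 45 loci shared a position, and 20892 shared theirs with none.

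From these values, log2((FPKM + 1)/(FPKM + 1)) of leaves to roots was computed where the higher library reached 5 FPKM, using Python 3.11.15, pandas 2.3.3, numpy 2.4.6 and scipy 1.17.1, with figures from matplotlib 3.10.9. A ratio of 4-fold counted as different. The calling code was run on simulated loci with known changes, which checks the computation and gives no error rate. Extreme ratios chose the named loci, 2 in each direction, as the table pairs no identifier with a gene name. Marker lists for leaf, root, flower and seed could not be applied, since 0 identifiers matched. The loci, limits and lists were chosen with earlier results of these data known, and the neighbour analysis was added after the data were seen. Alternatives were other pseudocounts, filters, folds and scalings, and the removal of loci with shared positions, short spans or listed zeros.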

Additional observations from a re-analysis of the deposited data

Results flagged for a closer look

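Leaves and roots were compared at both stages. Of the 5112 loci at least 4-fold different before flowering, 8 were at least 4-fold different in the opposite direction between the libraries labelled leaves and roots after flowering. Another 15 differed in the same direction. Over all tested loci after flowering, 44 of 13837 (0.318%) differed by at least 4-fold, so the 8 are few and are not read as a reversal between stages. With 1 library per group no difference between stages was tested, and the library labelled roots after flowering has the profile of a leaf library.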

How the results depend on the processing

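The count of loci higher in leaves (2439) was 1468 with at least 20 FPKM, 4378 at 2-fold, 1290 at 8-fold, 1486 with loci of their own position alone and 1471 with those spanning at least 500 bases. The count higher in roots (2673) was 1529 with at least 20 FPKM, 4181 at 2-fold and 1570 at 8-fold. These settings test fewer or more loci or move the limit by construction. Under the other 10 and 12 alternatives these counts stayed within 1.5 times. The median log2 ratio over the tested loci (0.18) changed sign with at least 20 FPKM (-0.0074) and after median-of-ratios scaling over all 8 libraries (-0.20) or over leaves and roots alone (-0.083). It was 0.019 with no filter, 0.11 after upper-quartile scaling, 0.32 with equal sums without the 100 most abundant loci, and 0.062 and 0.063 with loci of their own position, without and with the span limit. The cause was not tested. The shares of summed FPKM in the called loci stayed within 1.5 times under all 15 alternatives, but which organ had the larger share changed. As deposited they were 41.4% in leaves and 40.3% in roots. With loci of their own position alone they were 29.3% and 32.2%, and after median-of-ratios scaling over all 8 libraries 38.8% and 44.9%. The share of root loci followed by a root locus stayed above the share of root loci among neighbours in all 14 that could change it, by 1.21 to 1.87 times, and that of leaf loci by 1.03 to 1.46 times; these alternatives were added after the data were seen. No paired analysis was possible because each group held 1 library and the result comes from no test. Depth is unknown, so the precision of single values and the lowest detectable level cannot be given.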
